A study of Mus musculus with 6 samples.

Results

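The genes described here are 46 genes of microglia and tissue macrophages, among them ligands and enzymes that other brain cells make too, listed by symbol and read in the 6 libraries of hippocampal cultures without any minimum level. They are 46 of the 47086 loci in the deposited table, and the locus with the highest mean was taken for the 3 symbols with several loci. Values are FPKM, which corrects the fragments of a gene for its length and for the size of the library, so levels can be set side by side between genes as a quantity per length. The genes are scarce in these cultures. The median gene of the 46 had a mean of 0.242 FPKM over the 6 libraries, 6 genes reached a mean of 1 FPKM, and 5 were listed at 0 in every library.

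Total RNA came from primary hippocampal cultures of C57BL/6 mice, started from pups at postnatal day 0 and kept for 14 days in vitro. There were 3 wild type (WT) libraries and 3 *Fmr1* KO libraries, in which the gene for the RNA-binding protein FMRP is knocked out. The labels name no treatment, and the sources used here do not describe the KO allele. The study mentions culture batches and litters in general, but which batch, litter or sex of pups lies behind a library is not stated, so every p-value here measures the spread between these libraries, which may be partly technical.

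Microglia are the resident macrophages of the brain. They arise from yolk sac progenitors, need signalling through the CSF1 receptor to survive, and take up debris, dying cells and synaptic material, in part with the help of complement. A culture made from whole hippocampus is not purely neuronal, and a few microglia can be carried along with neurons and astrocytes. In such a bulk sample, fewer cells of a type and less RNA per cell cannot be told apart.

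The targeted gene was examined first. *Fmr1* was measured at 19.0, 19.5 and 19.7 FPKM in WT and at 23.1, 21.8 and 18.5 FPKM in *Fmr1* KO. The groups overlapped and did not differ beyond the spread (exact permutation test, two-sided, p = 0.4; with 3 against 3 the smallest possible p is 0.1), so FPKM over the whole gene does not check the genotype labels. Other transcripts did separate the genotypes. *Ttr*, which encodes the thyroid hormone carrier transthyretin made by choroid plexus, stood at 0, 0 and 0.0910 FPKM in WT and at 56.6, 52.0 and 60.7 FPKM in *Fmr1* KO. The Y-linked *Eif2s3y* was measured at 9.26, 9.68 and 9.65 FPKM in WT and at 22.4, 21.03 and 19.6 FPKM in *Fmr1* KO (limma, adjusted p = 0.00265), and *Ddx3y* rose by 0.66 on the log2 scale (adjusted p = 0.0213). *Kdm5d* and *Uty* were higher by 0.76 and 0.71 without passing the adjustment (adjusted p = 0.138 and 0.162), and *Xist* was lower by 0.27, with 59.9 to 77.9 FPKM in WT and 53.0 to 61.3 FPKM in *Fmr1* KO. The part of these differences between the cultures in the results below was not tested.

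The microglial and macrophage genes as a group sat lower in *Fmr1* KO, although no single gene passed the adjustment over all loci. A moderated test (limma) was run on log2(FPKM + 0.1) for the 26981 loci above 0 in at least 1 library, which include 41 of the 46 genes. At an adjusted p below 0.05, 9 loci fell (0.0334%) and 6 rose (0.0222%) in *Fmr1* KO, and 0 of the 41 genes were among either, the lowest adjusted p being 0.133. Before adjustment, at p below 0.05 (the nominal threshold in what follows), 17 of the 41 genes (41.5%) lay below WT and 0 above, where 5.36% of all loci tested lay below and 4.43% above. WT and *Fmr1* KO libraries did not overlap for 16 genes, all lower in *Fmr1* KO, against 7.44% of all loci in that direction and 7.0% in the other. The log2 change was below 0 for 33 of the 41 genes and above 0 for 8, against 50.6% and 49.4% of all loci, and its median was -0.45 for these genes and -0.002 for all loci. Folds on this scale understate the change of genes near or below 0.1 FPKM.

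**Figure D1:**
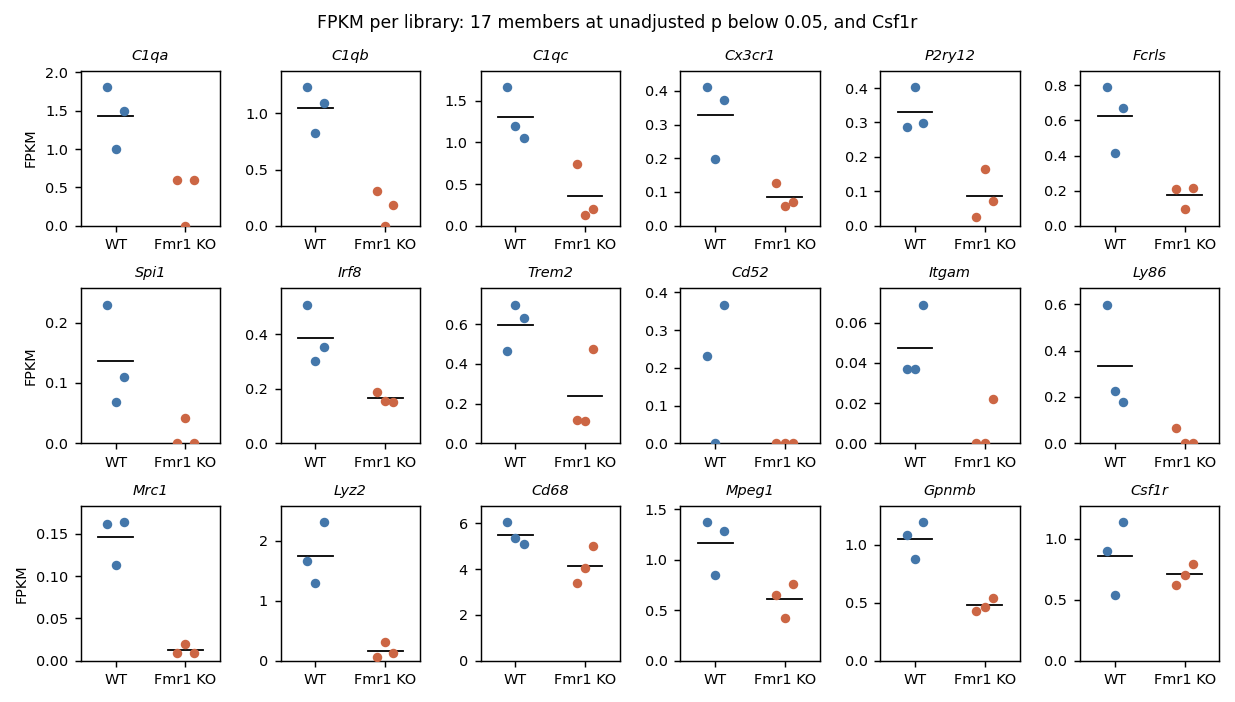
Each panel plots the FPKM of 1 gene (y axis, from 0) in the 3 WT and the 3 *Fmr1* KO libraries, with 1 point per library and a bar at the mean where no library of the genotype was at 0. In all panels but *Trem2*, *Cd52* and *Csf1r* every *Fmr1* KO library lies below every WT library.

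The complement C1q genes were among those with the largest differences. *C1qa*, *C1qb* and *C1qc* encode the chains of C1q, the recognition molecule that opens the classical complement pathway and that microglia make for most of the brain. They lie side by side on chromosome 4 in the deposited coordinates (GRCm38), *C1qb* at chr4:136880145-136886177, *C1qc* at chr4:136889802-136892932 and *C1qa* at chr4:136895916-136898844. *C1qa* was measured at 1.81, 1.002 and 1.49 FPKM in WT and at 0.595, 0 and 0.602 FPKM in *Fmr1* KO. *C1qb* was measured at 1.23, 0.822 and 1.09 FPKM in WT and at 0.305, 0 and 0.185 FPKM in *Fmr1* KO. *C1qc* was measured at 1.66, 1.19 and 1.05 FPKM in WT and at 0.740, 0.134 and 0.199 FPKM in *Fmr1* KO. For all 3 genes the lowest WT library exceeded the highest *Fmr1* KO library, and *Fmr1* KO replicate 2 was the lowest library of the 6. The log2 changes were -2.03 (SE 0.77), -2.33 (SE 0.52) and -1.83 (SE 0.49), with adjusted p = 0.464, 0.246 and 0.325 (limma). Summed, the C1q chains stood at 4.70, 3.02 and 3.63 FPKM in WT and at 1.64, 0.134 and 0.985 FPKM in *Fmr1* KO, and the *Fmr1* KO mean was 24.3% of the WT mean.

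Most other complement genes were level between the genotypes. Of 24 further complement genes in the table, 19 were above 0 in some library, and their median log2 change was -0.09. *C3ar1* and *C5ar1*, the receptors for the C3a and C5a fragments on myeloid cells, were lower at the nominal threshold and 0 were higher, and 0 passed the adjustment. These 2 are 10.5% of the 19, where 5.36% of all loci were lower and 4.43% higher. *C3ar1* was measured at 0.311, 0.243 and 0.215 FPKM in WT and at 0.132, 0.0985 and 0.0728 FPKM in *Fmr1* KO. *C5ar1* was listed at 0.0492, 0.0553 and 0.0785 FPKM in WT and at 0 in all 3 *Fmr1* KO libraries. The complement genes with the highest levels were *Masp1*, a lectin pathway protease (8.42, 9.64 and 9.74 FPKM in WT, 10.03, 10.1 and 9.79 FPKM in *Fmr1* KO), *Cd46* with *Cr1l*, membrane regulators at a shared locus (6.60 to 7.86 against 7.34 to 8.12 FPKM), and *Cfp*, the alternative pathway activator properdin (3.84 to 4.10 against 3.87 to 4.93 FPKM). Their log2 changes were all 0.11, with adjusted p between 0.67 and 0.733.

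The phagosome and lysosome genes held the lowest adjusted p of the 41, that of *Lyz2*. *Lyz2*, the lysozyme of macrophages and granulocytes, lies at chr10:117277541-117282272 and was measured at 1.66, 1.29 and 2.31 FPKM in WT and at 0.0614, 0.314 and 0.124 FPKM in *Fmr1* KO. Every WT library exceeded every *Fmr1* KO library, the WT mean was 10.5 times the *Fmr1* KO mean, and the log2 change was -2.87 (SE 0.40, limma adjusted p = 0.133). With only loci at a mean of at least 0.1 FPKM in the test, the adjusted p was 0.0340, so this call depends on the minimum. *Lyz1*, a near-identical neighbouring gene whose reads can be assigned to *Lyz2* or the reverse, was listed at 0.0546, 0 and 0.0435 FPKM in WT and at 0 in *Fmr1* KO. *Gpnmb*, a transmembrane glycoprotein of phagocytes that other brain cells also make, was measured at 1.08, 0.878 and 1.19 FPKM in WT and at 0.426, 0.464 and 0.541 FPKM in *Fmr1* KO. Its log2 change was -0.99 (SE 0.20, adjusted p = 0.208).

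*Mpeg1*, which encodes the pore-forming perforin-2 of macrophages, was measured at 1.37, 0.852 and 1.28 FPKM in WT and at 0.651, 0.427 and 0.755 FPKM in *Fmr1* KO. *Cd68*, a lysosomal membrane protein of phagocytes, was measured at 6.05, 5.35 and 5.10 FPKM in WT and at 3.41, 4.06 and 5.01 FPKM in *Fmr1* KO. In both genes the genotypes were separated, in *Cd68* by a narrow margin between WT replicate 3 and *Fmr1* KO replicate 3. *Cd68* was the most abundant gene of the 46 that is not also made in quantity by other brain cells, and its log2 change of -0.41 (SE 0.15, adjusted p = 0.448) was the smallest of the 17 at the nominal threshold. *Ctss*, the lysosomal protease cathepsin S, was measured at 0.341 to 0.4998 FPKM in WT and at 0.578, 0.227 and 0 FPKM in *Fmr1* KO, and *Cybb*, the catalytic subunit of the phagocyte NADPH oxidase, stayed at or below 0.10003 FPKM. Neither reached the nominal threshold, and *Aif1*, which encodes the microglial protein IBA1, was listed at 0 in every library.

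Promoter sequence is shown for *C1qb*, *Lyz2* and *Mrc1* (the mannose receptor), genes with large differences for which RefSeq sequence could be matched and which hold a core of the sites bound by PU.1, the ETS factor encoded by *Spi1* that directs myeloid genes. Each run is the 250 bases before the RefSeq gene start on GRCm38.p6 (GENCODE places the starts of *Lyz2* and *Mrc1* inside these windows), read 5′ to 3′ on the strand of the gene, with AGGAAGT or its reverse complement ACTTCCT in capitals.
C1qb, chr4:136886201-136886450, minus strand: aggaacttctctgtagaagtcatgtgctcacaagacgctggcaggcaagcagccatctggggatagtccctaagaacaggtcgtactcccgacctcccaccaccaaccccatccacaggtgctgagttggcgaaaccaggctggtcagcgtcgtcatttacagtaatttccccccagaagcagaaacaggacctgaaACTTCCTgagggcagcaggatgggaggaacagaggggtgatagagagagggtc
Lyz2, chr10:117282273-117282522, minus strand: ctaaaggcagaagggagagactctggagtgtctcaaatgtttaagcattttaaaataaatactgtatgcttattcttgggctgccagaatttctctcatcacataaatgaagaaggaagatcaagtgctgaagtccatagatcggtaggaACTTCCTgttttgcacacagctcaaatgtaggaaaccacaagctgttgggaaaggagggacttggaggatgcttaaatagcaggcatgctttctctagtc
Mrc1, chr2:14229164-14229413, plus strand: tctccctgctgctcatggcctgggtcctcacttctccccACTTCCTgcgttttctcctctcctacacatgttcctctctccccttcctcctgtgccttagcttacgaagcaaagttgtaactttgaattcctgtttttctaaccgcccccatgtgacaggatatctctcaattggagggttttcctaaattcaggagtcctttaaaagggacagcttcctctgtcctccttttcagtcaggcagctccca

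The first base of the capitals lies 53, 100 and 211 bases before that start in *C1qb*, *Lyz2* and *Mrc1*. Across the 46 genes, 33 had a promoter sequence in the RefSeq table. AGGAAGT was present on either strand in 10 of the 33, and in 8.80% of the 27025 symbols with a sequence. Of the 14 with a sequence among the genes at the nominal threshold, 6 held it. The overlapping core GAGGAA was present in 16 of the 33 and in 25.9% of all symbols, and in 7 of the 14. These cores were picked after several had been counted, and a match of letters is a description of the window, not a site that was measured.

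Among the receptors that mark resting microglia, *Cx3cr1*, *P2ry12* and *Fcrls* were lower in *Fmr1* KO and the others were near 0 or near the WT level. *Cx3cr1*, the receptor for neuronal fractalkine, was measured at 0.411, 0.199 and 0.374 FPKM in WT and at 0.125, 0.0570 and 0.0710 FPKM in *Fmr1* KO. *P2ry12*, the ADP receptor that steers microglial processes to injury, was measured at 0.286, 0.402 and 0.299 FPKM in WT and at 0.0238, 0.165 and 0.0722 FPKM in *Fmr1* KO. *Fcrls*, an Fc receptor-like protein, was measured at 0.790, 0.414 and 0.671 FPKM in WT and at 0.211, 0.0958 and 0.213 FPKM in *Fmr1* KO. All 3 genes were separated between the genotypes, with log2 changes of -1.19, -1.26 and -1.40 (SE 0.29, 0.33 and 0.32; limma adjusted p = 0.284, 0.305 and 0.249).

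The other receptors of that group gave no such separation. *P2ry6*, a receptor for UDP, was measured at 0.727, 0.230 and 0.469 FPKM in WT and at 0.546, 0.472 and 0.291 FPKM in *Fmr1* KO. *Olfml3*, a secreted protein that other brain cells make as well, was measured at 0.482, 0.389 and 0.473 FPKM in WT and at 0.429, 0.709 and 0.634 FPKM in *Fmr1* KO. Its log2 change of 0.31 (SE 0.24, adjusted p = 0.731) was upward and within the spread. *Gpr34* and *P2ry13* were at most 0.180 FPKM in any library. *Tmem119* and *Siglech*, among the most specific microglial transcripts, were listed at 0 in all 6 libraries. Some of these loci are not clean: *P2ry12* and *P2ry13* share an interval with *Med12l* (chr3:59005594-59344441, 6.35 FPKM in WT and 6.62 in *Fmr1* KO for *Med12l*), and *Gpr34* shares one with *Cask* (21.9 and 22.0 FPKM). What the neighbour contributed to the values of these genes was not tested.

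The receptor for CSF1 and its ligands did not differ beyond the spread between libraries. *Csf1r*, the receptor that microglia need to survive, was measured at 0.894, 0.537 and 1.13 FPKM in WT and at 0.620, 0.704 and 0.794 FPKM in *Fmr1* KO. The groups overlapped, with a log2 change of -0.20 (SE 0.28, adjusted p = 0.818), so *Csf1r* stood apart from the C1q genes among the defining markers. Its locus in the table overlaps another locus and begins 8763 bases upstream of the RefSeq gene. *Csf1*, a ligand made by astrocytes and other cells, was measured at 3.70, 4.64 and 5.22 FPKM in WT and at 4.64, 4.50 and 5.28 FPKM in *Fmr1* KO. *Il34*, a ligand made by neurons, was measured at 3.77, 3.79 and 4.86 FPKM in WT and at 3.97, 4.57 and 4.66 FPKM in *Fmr1* KO. For both ligands the genotypes overlapped, with log2 changes of 0.10 (SE 0.14) and 0.09 (SE 0.12). The *Csf1* locus overlaps 1 other locus and the *Il34* locus overlaps 2. That of *Csf1* starts 44390 bases before and ends 52482 bases after the RefSeq gene.

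Of the transcription factors, the myeloid factors *Spi1* and *Irf8* were lower and *Sall1* was level. *Spi1*, which encodes PU.1, was measured at 0.229, 0.0687 and 0.110 FPKM in WT and at 0, 0.0417 and 0 FPKM in *Fmr1* KO. *Irf8*, a partner of PU.1 in microglial development, was measured at 0.507, 0.3003 and 0.354 FPKM in WT and at 0.188, 0.154 and 0.152 FPKM in *Fmr1* KO. The genotypes did not overlap in either gene, and the log2 changes were -1.01 (SE 0.30) and -0.86 (SE 0.24), with adjusted p = 0.365 and 0.349 (limma). *Sall1*, which maintains microglial identity but is made by other cells of the brain too, was measured at 3.01, 3.47 and 3.75 FPKM in WT and at 3.30, 3.39 and 3.79 FPKM in *Fmr1* KO, with a log2 change of 0.04 (SE 0.11).

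The genes of the TREM2 receptor complex and the Fc receptors were less even between libraries. *Trem2*, a receptor for lipids and apolipoproteins, was measured at 0.463, 0.697 and 0.632 FPKM in WT and at 0.118, 0.113 and 0.476 FPKM in *Fmr1* KO. *Tyrobp*, the DAP12 adaptor through which TREM2 signals, was measured at 1.08, 1.08 and 0.574 FPKM in WT and at 0.643, 0 and 0.326 FPKM in *Fmr1* KO. In both genes 1 *Fmr1* KO library reached above the lowest WT library, and the log2 changes were -1.21 (SE 0.43) and -1.63 (SE 0.73), with adjusted p = 0.447 and 0.526 (limma). *Fcer1g*, the common gamma chain of Fc receptors, is given here after its values were seen, because it varied widely within WT, at 1.53, 0.105 and 0.666 FPKM, against 0.248, 0.126 and 0 FPKM in *Fmr1* KO. *Fcgr3*, a low-affinity IgG receptor, was measured at 0.803, 1.28 and 1.16 FPKM in WT and at 1.25, 0.914 and 0.812 FPKM in *Fmr1* KO, with the groups overlapping and a log2 change of -0.11 (SE 0.24). Its locus carries 3 symbols and overlaps 2 other loci, so these values are not those of *Fcgr3* alone. *Fcgr2b*, the inhibitory IgG receptor, stayed below 0.2 FPKM.

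Of the 10 leukocyte surface genes, 9 were tested, and *Cd52*, *Itgam*, *Ly86* and *Mrc1* were lower at the nominal threshold (44.4%, against 5.36% of all loci). *Mrc1*, the mannose receptor of border-associated and other tissue macrophages, lies at chr2:14229414-14332023 and was measured at 0.162, 0.113 and 0.163 FPKM in WT and at 0.0096, 0.0197 and 0.00969 FPKM in *Fmr1* KO. Its WT mean was 11.3 times its *Fmr1* KO mean, while the log2 change after adding 0.1 FPKM was -1.12 (SE 0.18, limma adjusted p = 0.161), so the fold at this level depends on the added value. *Ly86*, the MD-1 partner of a Toll-like receptor homologue, was measured at 0.597, 0.224 and 0.178 FPKM in WT and at 0.0664, 0 and 0 FPKM in *Fmr1* KO. The genotypes were separated in both genes.

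*Itgam*, the CD11b integrin chain, was measured at 0.0371, 0.0370 and 0.0689 FPKM in WT and at 0, 0 and 0.0222 FPKM in *Fmr1* KO. *Cd52*, a small surface glycoprotein of leukocytes, was listed at 0.231, 0 and 0.367 FPKM in WT and at 0 in all 3 *Fmr1* KO libraries. WT replicate 2 shared the 0 of *Cd52* with *Fmr1* KO, so the genotypes touched. *Ptprc* (CD45), *Cd53*, *Cd14* and *Cd74* were between 0 and 0.436 FPKM with overlapping genotypes, *Itgax* was above 0 in *Fmr1* KO replicate 2 and no other library, and *Laptm5* was listed at 0 throughout.

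The chemokines were at the edge of detection. *Ccl3*, a chemokine of activated microglia, was listed at 0.313, 0 and 0 FPKM in WT and at 0, 0.0946 and 0.0939 FPKM in *Fmr1* KO, *Ccl6* was above 0 in WT replicate 2 and no other library, and *Ccl4* was at 0 throughout. The lectin and lipid genes ranged widely in level. *Lpl*, lipoprotein lipase, which neurons and astrocytes also make, was the most abundant of the 46 genes at 26.7, 24.7 and 23.3 FPKM in WT and 26.4, 22.3 and 22.4 FPKM in *Fmr1* KO, and its log2 change was -0.07 (SE 0.08). *Lgals3*, galectin-3, was measured at 1.23, 1.39 and 0.781 FPKM in WT and at 0.741, 1.03 and 0.617 FPKM in *Fmr1* KO, with overlap and a log2 change of -0.45 (SE 0.28). *Hpgds*, a prostaglandin D synthase of microglia, was lower in every *Fmr1* KO library (0.135 to 0.162 FPKM in WT, 0.0407 to 0.124 in *Fmr1* KO) but did not reach the nominal threshold.

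**Figure D2:**
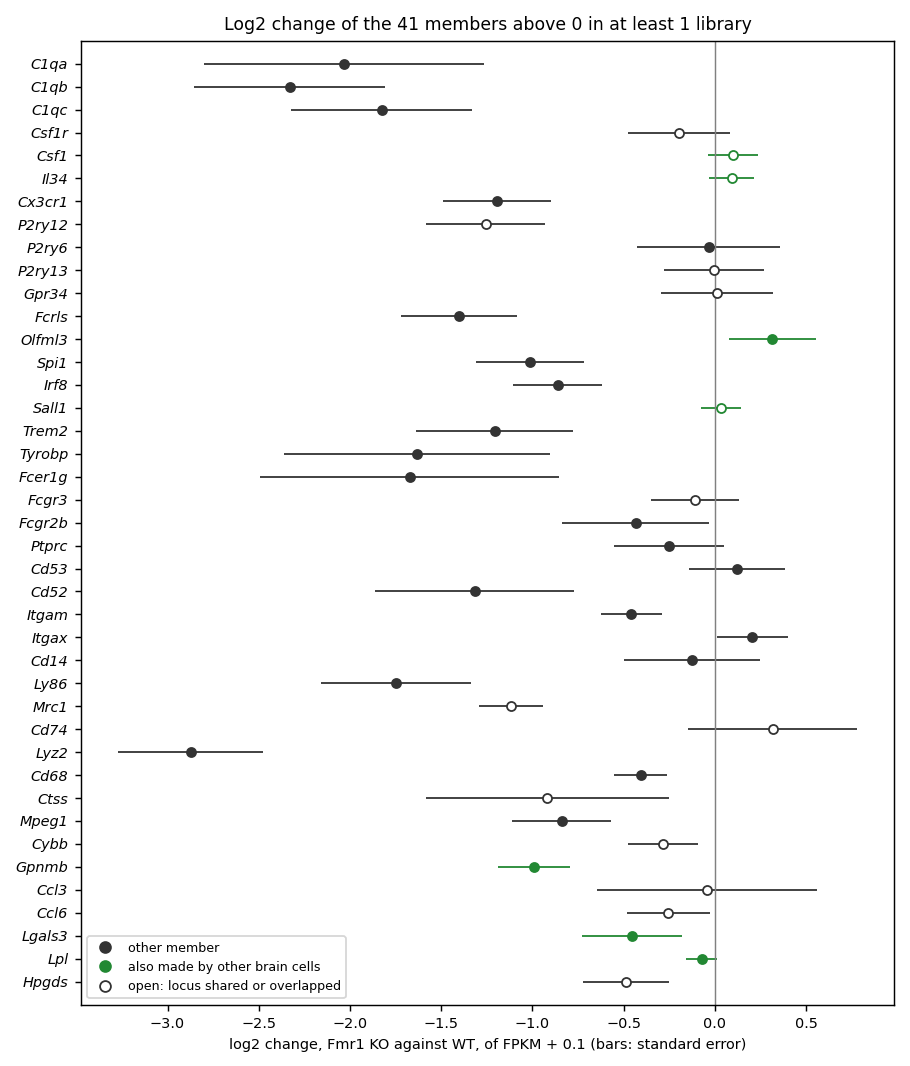
The x axis gives the log2 change of FPKM + 0.1 in *Fmr1* KO against WT with its standard error for the 41 genes above 0 in at least 1 library, ordered by role, and open points mark loci that carry a further symbol or overlap another locus. Points lie below 0 for 33 genes. The green points, genes also made by other brain cells, lie near 0 except *Gpnmb* and *Lgals3*, which lie below it, and *Olfml3*, which lies above it.

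The summed levels differed by whether other brain cells make the genes, a split that was not tested. The 7 genes also made by other brain cells (*Csf1*, *Il34*, *Lpl*, *Sall1*, *Lgals3*, *Gpnmb* and *Olfml3*) carried 71.0% of the summed FPKM of the 46. Their sum was 39.9, 39.3 and 39.5 FPKM in WT and 39.9, 36.9 and 37.9 FPKM in *Fmr1* KO. Most of that sum was *Lpl*, with means of 24.9 FPKM in WT and 23.7 FPKM in *Fmr1* KO. Of the 7, *Gpnmb* was lower at the nominal threshold and 0 were higher, and the log2 change was below 0 for 3 and above 0 for 4. The other 39 genes summed to 24.6, 17.7 and 21.2 FPKM in WT and to 11.6, 9.07 and 11.1 FPKM in *Fmr1* KO, a mean of 21.2 ± 3.46 against 10.6 ± 1.34 (SD, n = 3 each), or 50.01% of WT. Of the 34 of them in the test, 16 (47.1%) were lower at the nominal threshold and 0 were higher. Over all loci tested, 5.36% were lower and 4.43% higher at that threshold, and 50.6% had a log2 change below 0. Of 15 markers that define microglia, 3 were at 0 in all libraries (*Tmem119*, *Siglech* and *Aif1*). The remaining 12 all had a log2 change below 0 with a median of -1.23, and 9 (75.0%) were lower at the nominal threshold, against 5.36% of all loci. The 15 summed to 9.01, 6.55 and 7.62 FPKM in WT and to 3.55, 1.34 and 3.01 FPKM in *Fmr1* KO, or 34.1% of WT, with no overlap.

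Loci that stand alone and loci that do not gave different counts. Of the 26 tested genes with 1 symbol and no overlapping locus, 15 (57.7%) were lower at the nominal threshold. Of the 15 tested genes at a shared or overlapped locus, 2 were (13.3%, *P2ry12* and *Mrc1*), against 5.36% of all loci. The first set summed to 45.2 ± 4.79 FPKM in WT and 33.6 ± 2.90 in *Fmr1* KO, and the second to 15.5 ± 1.81 and 15.2 ± 0.59 (SD, n = 3 each). Genes also made by other brain cells weigh on both sums. The first holds *Lpl* (24.9 FPKM in WT and 23.7 in *Fmr1* KO). The second holds *Csf1*, *Il34* and *Sall1* (4.52, 4.14 and 3.41 FPKM in WT, 4.80, 4.40 and 3.49 in *Fmr1* KO). The difference between the sets was not tested.

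The sums of marker lists of neurons and glia other than microglia were closer to the WT level. Summed FPKM in *Fmr1* KO was 102% of WT for 10 astrocyte markers, 110% for 10 oligodendrocyte lineage markers, 105% for 8 excitatory neuron markers and 97.0% for 8 inhibitory neuron markers. Single markers moved within these sums. At the nominal threshold, 1 inhibitory neuron marker was lower and 3 were higher, and 2 oligodendrocyte lineage markers were higher and 0 lower. In the astrocyte and excitatory neuron lists, 1 marker each was lower and 0 were higher. Over all loci the shares were 5.36% lower and 4.43% higher. The sums of the vascular and mesenchymal lists were lower, as was that of the microglial genes. The 10 endothelial markers summed to 3.59 to 3.86 FPKM in WT and 2.37 to 3.03 FPKM in *Fmr1* KO, with *Pecam1* and *Emcn* lower and *Slco1a4* higher at the nominal threshold. The 10 mural and fibroblast markers summed to 48.3 to 53.1 FPKM in WT and 39.5 to 47.4 FPKM in *Fmr1* KO, with *Dcn* and *Tagln* lower. Within this list the log2 change was below 0 for 6 genes and above 0 for 4. Its median level was 0.507 FPKM in WT and 0.542 FPKM in *Fmr1* KO, so the lower sum was not shared by all its genes. The 8 proliferation genes were on the higher side, with a sum of 58.6 to 63.1 FPKM in WT and 70.0 to 71.6 FPKM in *Fmr1* KO, and a log2 change above 0 in all 8, of which *Top2a* and *Mcm2* were higher at the nominal threshold. Choroid plexus markers other than *Ttr* were also higher, at 208% of the WT sum, with *Clic6*, *Otx2* and *Aqp1* past that threshold of 4 tested. Markers of blood leukocytes were near 0 in both genotypes. Of 16 genes of monocytes, neutrophils and lymphocytes, 7 were at 0 in all libraries, 0 of the 9 tested were lower or higher at the nominal threshold, and the sum was 0.106 to 0.433 FPKM in WT and 0.214 to 0.384 FPKM in *Fmr1* KO. The part of the vascular, mesenchymal, proliferation and choroid plexus differences in the microglial result was not tested.

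**Figure D3:**
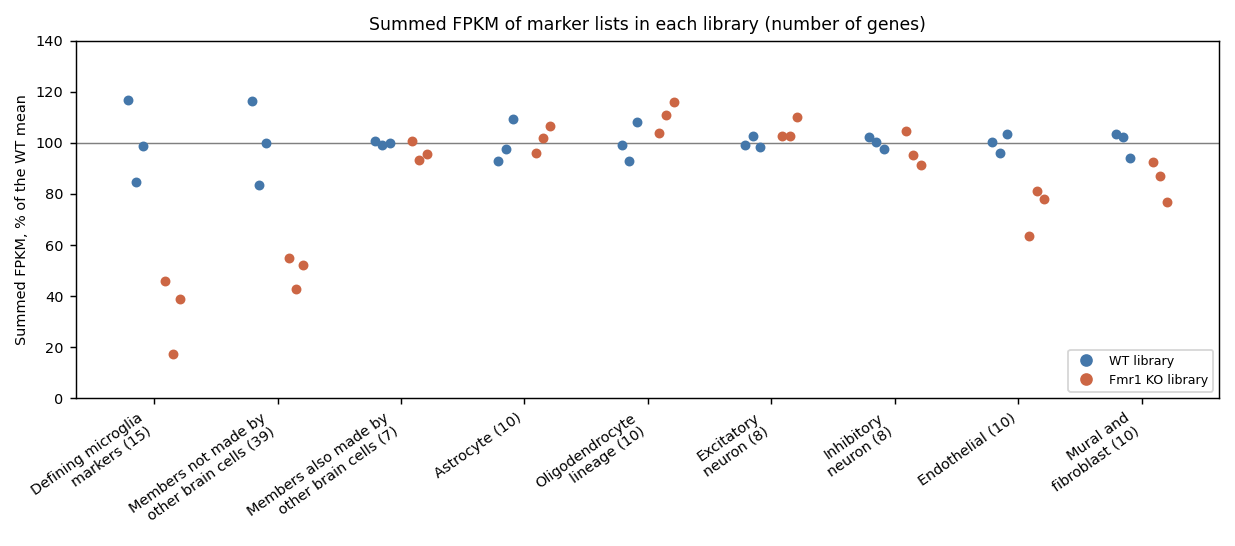
Each point is the summed FPKM of a marker list in 1 library, as a percentage of the WT mean of that list (y axis, from 0), for WT and *Fmr1* KO libraries, with the number of genes in parentheses. Defining microglia markers stand at 34.1% of WT in the *Fmr1* KO mean, astrocyte and neuron lists near 100%, and the endothelial list at 74.2%.

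A further list of 54 microglia and macrophage genes gave a weaker pattern of the same sign. Of the 51 above 0 in some library, 14 were lower and 1 was higher at the nominal threshold (27.5% lower, against 5.36% of all loci), 0 passed the adjustment, and the median log2 change was -0.21. *Coro1a*, an actin regulator of leukocytes and neurons, was measured at 31.2, 26.3 and 24.9 FPKM in WT and at 27.4, 23.3 and 25.2 FPKM in *Fmr1* KO, with overlap. *Csf2ra*, a receptor chain for GM-CSF, went the other way, from 8.76, 7.42 and 8.23 FPKM in WT to 10.2, 10.7 and 9.03 FPKM in *Fmr1* KO (log2 change 0.29, adjusted p = 0.376). The 14 genes lower at that threshold include the endosomal receptor *Tlr7* and its chaperone *Unc93b1*, the F4/80 antigen *Adgre1* and the integrin chain *Itgb2*, as well as *C3ar1* and *C5ar1*, which stand in the complement list too.

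Values listed at 0 need care. Of the 41 genes above 0 somewhere, 26 were above 0 in all 6 libraries and 15 were at 0 in 1 to 5 of them, which makes 11 zeros in WT and 22 in *Fmr1* KO. A listed 0 is not proof of absence in this table, in which 42.7% of all loci stand at 0 in every library. Of protein-coding loci with a second copy on an unplaced or alternate scaffold, 606 of 972 (62.3%) were at 0 in every library, against 3951 of 19751 (20.004%) without one. *Aif1* has 4 loci in the table and *Laptm5* and *Olfml3* have 2 each. Genes used by nearly all cells were also listed low, among them *Daxx* at 0 in all 6 libraries and *Ppia* at 0 in WT and 0.209 to 0.621 FPKM in *Fmr1* KO, chosen after their values were seen. No level is therefore drawn from the 5 genes listed at 0 throughout.

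At the low end the table shows how little material a value holds. FPKM does not give the number of fragments, but at a single gene the values of the 6 libraries, once put on the relative scale of the libraries, can fall on whole multiples of a smallest step. That held, within 0.1 of a whole number, for 11 of the 31 genes with a mean below 3 FPKM and at least 4 libraries above 0, and for 35.8% of all such loci. *Lyz2* stood at 24, 25 and 42 steps in WT and at 1, 5 and 2 steps in *Fmr1* KO. *Mrc1* stood at 15, 14 and 19 steps against 1, 2 and 1. *Fcer1g* stood at 11, 1 and 6 steps against 2, 1 and 0. In the thinnest genes the whole difference rests on a few steps, as in *Spi1* at 5, 2 and 3 against 0, 1 and 0 and *Tyrobp* at 3, 4 and 2 against 2, 0 and 1. A step may be 1 fragment or a whole number of them, so these are not counts and carry no counting interval.

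**Figure D4:**
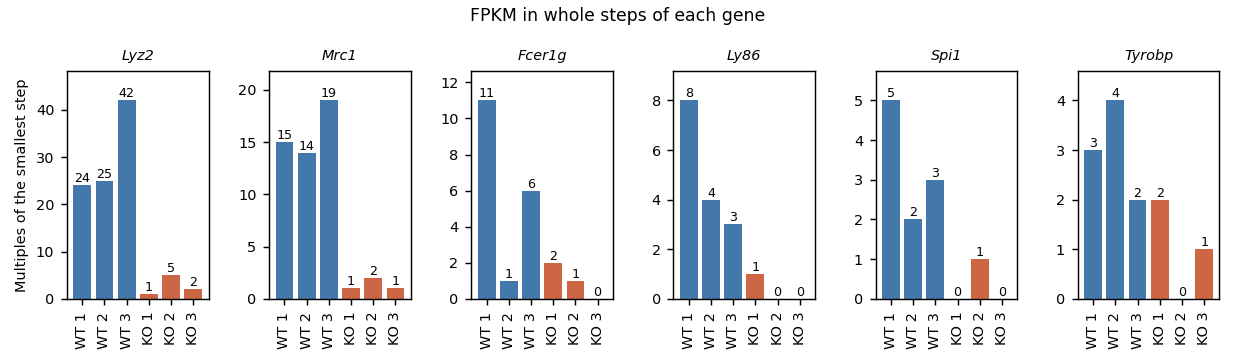
Bars give the value of 6 genes in each library as a multiple of the smallest step of that gene (y axis, from 0), after the relative scale of the libraries. *Lyz2* and *Mrc1* reach 14 steps or more in every WT library and at most 5 in any *Fmr1* KO library, whereas *Spi1*, *Tyrobp* and *Ly86* span at most 8 steps.

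Within WT, replicate 2 was the lowest library, on its own, for 21 of the 41 genes, against 7 and 9 for replicates 1 and 3. Over all loci above 0 in some library the shares were 26.8%, 29.7% and 24.4% for replicates 2, 1 and 3, and the difference from these shares was not tested. In *Fmr1* KO replicates 1, 2 and 3 were lowest for 13, 12 and 10 genes. With each library left out in turn, between 12 and 17 of the tested genes were lower at the nominal threshold, and the direction of the 17 genes turned in no alternative that was run.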

How the data were processed

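Total RNA from 3 WT and 3 *Fmr1* KO hippocampal cultures was sequenced, and groups and replicate numbers were taken from the sample titles. The authors clipped adapters (Fastx Clipper), trimmed (sickle), mapped to GRCm38 (TopHat2), and used Cufflinks for gene models and Cuffdiff for their comparison. Versions, annotation and library scaling were not given in the sources used here. Deposited values were FPKM per library, which were used, and the authors' group FPKM, p-value and q-value of their own comparison, which were not. Of the 48100 rows of the table, 462 had no symbol. FPKM were not treated as counts, and the absolute depth is unknown, so the spread between 3 libraries sets the precision.

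From these values, loci above 0 in at least 1 library were tested once each on log2(FPKM + 0.1) with limma 3.58.1 in R 4.3.3, two-sided, with genotype as the only term, an intensity trend of the variance and p-values adjusted over all loci by Benjamini-Hochberg. The script was tested on simulated data. Single values were compared by an exact permutation test. Values per library are given for genes of the 46 with a mean of at least 0.5 FPKM or an unadjusted p below 0.05, and the highest of a role group with fewer; of other lists, for genes at an adjusted p below 0.05 and the 3 highest, and further genes are said to be named after their values were seen. Of the other lists, *C3ar1* and *C5ar1*, the endothelial, mesenchymal, proliferation and choroid plexus genes, the genes listed after *Csf2ra*, and the activated microglia genes beyond the 3 highest were so named, as were *P2ry6*, *Ctss* and *Ttr*. The genes, lists and tests were chosen with earlier results of these data known. Alternatives were pseudocounts of 1 and 0.01, 3 minimum levels, centring of libraries, no trend, a replicate block, loci without overlap, and each library left out. Promoter sequence is from RefSeq (GRCm38.p6). Behavioural and protein experiments were not analysed here. A few single genes that the naming rule picks are not reported here.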

Additional observations from a re-analysis of the deposited data

How the results depend on the processing

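At an adjusted p below 0.05, the 9 loci lower in *Fmr1* KO became 5 with a pseudocount of 1, 23 with a mean of at least 1 FPKM in either genotype, 21 with a mean of at least 0.1 FPKM, 15 when above 0 in at least 3 libraries, and 1 to 3 with a library left out. The 6 loci higher became 12 under either of these mean levels and 4 to 6 with a library left out. Of the 46 genes, 0 were lower at that threshold, and 1, *Lyz2*, with a mean of at least 1 FPKM in either genotype (adjusted p = 0.0359) or at least 0.1 FPKM (0.0340). *Lyz2* reached 1 FPKM in WT only (means of 1.75 FPKM in WT and 0.166 FPKM in *Fmr1* KO). The minimum of 1 FPKM thus admits it through the difference under test, and 0.0359 is no separate support. The range of its adjusted p over all alternatives was 0.0340 to 0.333. The 17 genes lower at an unadjusted p below 0.05 became 7 of 13 tested at a mean of at least 1 FPKM in either genotype, and 12 to 17 with a library left out. The 7 of 13 is shaped by that minimum, which shortens the list and favours genes high in WT. *C1qa*, *C1qb*, *C1qc*, *Lyz2*, *Mpeg1* and *Gpnmb* reached it in WT only, as did *Lgals3* and *Fcgr3*, which were not among the 17. For the genes of the 46 with a mean of at least 0.5 FPKM or an unadjusted p below 0.05, 346 alternative values were read. Of these, 338 kept direction and side of an adjusted p of 0.05. In the main test 0 of the genes passed the adjustment, so the side could change only toward a call. Sign changed in uncalled genes, where the log2 change with a library left out ranged from -0.46 to 0.013 in *Csf1r* (upward without WT replicate 3), -0.037 to 0.206 in *Csf1* (downward without WT replicate 1), -0.048 to 0.105 in *Sall1* (downward without WT replicate 1 or *Fmr1* KO replicate 3) and -0.29 to 0.014 in *Fcgr3* (upward without WT replicate 2 or *Fmr1* KO replicate 3); the cause was not tested. The same replicate numbers did not pair all libraries. The correlations of same-numbered deviations were 0.26, 0.044 and 0.076 for replicates 1, 2 and 3. Replicate 1 of each genotype correlated best with replicate 1 of the other and negatively with its other replicates (-0.16 to -0.12). WT replicate 2 correlated best with *Fmr1* KO replicate 3, and WT replicate 3 with *Fmr1* KO replicate 2 (both 0.093). What the replicate 1 libraries share was not tested. With the replicate block, 1 locus was lower and 1 was higher at an adjusted p below 0.05, and 0 of the 46 genes passed. *Fmr1* kept its direction and its side of the threshold under all alternatives.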

Other observations

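Genes that rise in activated or plaque-associated microglia were also read. Of 20 such genes, 18 were above 0 in some library, and 6 of these (33.3%) were lower and 1 was higher before adjustment at p below 0.05 (limma). Over all loci the shares were 5.36% lower and 4.43% higher. Of the 18, 0 passed the adjustment, and the median log2 change was -0.14. The abundant ones are also made by astrocytes and neurons. *Apoe*, the main lipid carrier of astrocytes, was measured at 1881, 1674 and 1940 FPKM in WT and at 1655, 1620 and 1910 FPKM in *Fmr1* KO. *Ctsb*, a lysosomal cysteine protease, was measured at 247, 217 and 238 FPKM in WT and at 213, 208 and 209 FPKM in *Fmr1* KO, and *Ctsd*, an aspartic protease, at 186, 166 and 172 against 160, 158 and 157 FPKM. In both proteases the genotypes were separated by a small step, with log2 changes of -0.15 and -0.14 (adjusted p = 0.446 and 0.453). Other genes of the list were scarce. *Spp1*, osteopontin, was measured at 0.567, 0.991 and 0.603 FPKM in WT and at 0.421, 0.420 and 0.425 FPKM in *Fmr1* KO. *Ccl2*, a monocyte chemoattractant, was the one gene higher at that unadjusted threshold, at 0.101, 0 and 0 FPKM in WT and 0.0900, 0.275 and 0.182 FPKM in *Fmr1* KO. *Tnf* and *Ccl12* were listed at 0 in every library, and *Il6* and *Cst7* were above 0 in WT replicate 3 and no other library.

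The interferon response genes were all above 0, and 1 of 12 (8.33%) was lower and 0 were higher before adjustment at p below 0.05. That share is close to the 5.36% of all loci that were lower, and 4.43% of all loci were higher. Of the 12 genes, 0 passed the adjustment, and the median log2 change was -0.12. *Ifit3*, an interferon-induced antiviral protein, was measured at 2.46, 2.32 and 3.67 FPKM in WT and at 1.46, 1.83 and 1.27 FPKM in *Fmr1* KO (log2 change -0.83, SE 0.22, adjusted p = 0.305). *Ifit2*, another of the 3 most abundant, overlapped between the genotypes, at 2.76 to 3.04 FPKM in WT and 2.90 to 3.11 FPKM in *Fmr1* KO.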
